A study of Mus musculus with 8 samples.

Results

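The transcripts of 10 glycolytic enzymes (Hk1, Pfkl, Aldoa, Tpi1, Gapdh, Pgk1, Pgam1, Eno1, Pkm and Ldha) were examined in mouse platelets. The genes were taken by symbol from a table of 43548 genes, in which each of the 10 had 1 row. The study asked how chronically raised TNF-α changes platelet transcripts. RNA of washed platelets was sequenced from 4 TNFdARE mice and 4 littermate controls, with 1 library per mouse. All mice were 8 to 12 weeks old and were sampled at baseline, without treatment. Each group held 2 females and 2 males by the labels. TNFdARE mice lack the AU-rich elements that limit the stability and translation of the Tnf transcript, have constitutively more TNF-α from before birth, develop arthritis and inflammatory bowel disease, and were backcrossed to C57BL/6J, so that platelets came from animals with systemic disease and not from isolated exposure of platelets to the cytokine. The labels marked the mutants as TNFdAre + without giving the number of mutant alleles.

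Glycolysis splits glucose into pyruvate in the cytosol, yields ATP without oxygen, and ends in lactate when pyruvate is reduced. Platelets draw on glucose and on stored glycogen when they are activated, alongside respiration in their few mitochondria. They have no nucleus, so their transcripts are inherited from the megakaryocytes that release them. In bulk RNA of this kind, fewer cells of a type and less RNA per cell cannot be told apart.

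Values were read as FPKM, fragment counts scaled to transcript length and to the number of mapped fragments. This unit allows levels of different genes to be compared. Values are listed below from mouse 1 to mouse 4 of each group. The number of reads behind each library is unknown. Between 818 and 4917 genes were above 0 in a library, with the lowest numbers in TNFdARE mouse 1 (818) and TNFdARE mouse 4 (1225), and the single gene AY036118 took 33.7% to 67.7% of the summed FPKM. The 16 platelet and megakaryocyte markers examined were all above 0 in at least 1 mouse, with a summed FPKM of 1242 to 1740 in control mice and 1180 to 1319 in TNFdARE mice, and between 14 and 16 of them were above 0 in each library. Of 12 genes examined that nearly all cells use, 1 was at 0 in all 8 libraries, 7 were above 0 in some and 4 in all 8. Hprt stood at 0 throughout. Ppia was above 0 only in TNFdARE mouse 2 (2.42 FPKM) and TNFdARE mouse 4 (1.54 FPKM). Actb, B2m, Eef1a1 and Ywhaz were the 4 above 0 in all 8. A listed 0 can therefore be a failed estimate and is not read here as absence of a transcript.

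Among the 10 enzymes, Pkm, Aldoa and Hk1 were above 0 in all 8 mice, 6 further enzymes in some mice, and Pgam1 in none. These 3 transcripts made up 85.5% of the enzymes' summed mean FPKM, and Pkm alone 48.2%. The 4 enzymes with a mean of at least 1 FPKM (Pkm, Aldoa, Hk1 and Tpi1) entered the test across all genes, and the other 6 did not. None of these 4 passed the test between TNFdARE and control platelets.

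The sequences of 3 of the enzymes that were mostly listed at 0 are shown first, because they exist almost letter for letter in other places of the mouse genome. Such copies bear on what a value per gene can mean, since a read from a shared stretch can be assigned to the enzyme, to a copy, to both or to neither. Gapdh (ENSMUSG00000057666) catalyses the step that captures phosphate and reduces NAD. The stretch of 90 bases below lies in the coding part of transcript exon 3 of Gapdh at chr6:125163294-125163383 (GRCm38, minus strand). The 5 copies shown are processed pseudogenes, retrotransposed versions of the spliced transcript, and were those with the highest mean FPKM among the copies. They lie at chr1:180328013-180328102 (minus strand, Gm5069), chr7:51746773-51746862 (plus strand, Gm7336), chr1:100282879-100282968 (plus strand, Gm29667), chr13:97458984-97459073 (minus strand, Gm8756) and chr11:20335848-20335937 (minus strand, Gm12033). Capitals mark bases that differ from Gapdh.
Gapdh: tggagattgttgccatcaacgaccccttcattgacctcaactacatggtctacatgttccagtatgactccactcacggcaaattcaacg
Gm5069: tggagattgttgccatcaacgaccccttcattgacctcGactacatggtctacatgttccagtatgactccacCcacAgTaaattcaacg
Gm7336: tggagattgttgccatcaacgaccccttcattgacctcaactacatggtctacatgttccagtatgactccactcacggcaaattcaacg
Gm29667: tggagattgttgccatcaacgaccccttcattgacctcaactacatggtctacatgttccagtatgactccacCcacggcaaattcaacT
Gm8756: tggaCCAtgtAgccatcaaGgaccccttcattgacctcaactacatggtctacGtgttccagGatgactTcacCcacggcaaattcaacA
Gm12033: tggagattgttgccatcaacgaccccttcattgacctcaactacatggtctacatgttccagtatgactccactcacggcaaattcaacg
Gm7336 and Gm12033 carried no difference in this stretch, Gm29667 carried 2, Gm5069 carried 4 and Gm8756 carried 10. The stretch was the one with the most differences among those free of gaps in all 5 copies. Over the aligned coding bases Gm7336 was identical to Gapdh in 1017 of 1017, Gm12033 in 998 of 999, Gm29667 in 461 of 470, Gm5069 in 983 of 1017 and Gm8756 in 887 of 923.

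Eno1 (ENSMUSG00000063524), the enolase of most tissues, and Pgk1 (ENSMUSG00000062070), which makes the first ATP of the pathway, were shown for the same reason. The Eno1 stretch of 60 bases lies in the coding part of transcript exon 8 at chr4:150246570-150246629 (GRCm38, plus strand). Its counterpart in the pseudogene Gm4735 lies at chr2:80837808-80837867 (plus strand). The Pgk1 stretch of 60 bases lies in the coding part of transcript exon 1 at chrX:106187252-106187311 (plus strand). Its counterparts lie in Pgk1-rs7 at chr12:10900181-10900240 (minus strand) and in Gm5537 at chr3:58104187-58104246 (minus strand). Capitals again mark bases that differ from the enzyme's gene.
Eno1: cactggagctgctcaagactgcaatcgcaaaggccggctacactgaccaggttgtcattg
Gm4735: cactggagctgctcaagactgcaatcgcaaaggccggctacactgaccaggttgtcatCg
Pgk1: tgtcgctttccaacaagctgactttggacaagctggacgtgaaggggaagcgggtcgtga
Pgk1-rs7: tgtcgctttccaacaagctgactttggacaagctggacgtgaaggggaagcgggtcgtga
Gm5537: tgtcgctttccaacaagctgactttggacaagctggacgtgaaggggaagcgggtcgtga
Gm4735 differed from Eno1 at 1 base here and was identical in 1297 of 1302 coding bases. Both Pgk1 copies were identical to Pgk1 in this stretch and over all aligned coding bases, 1250 for Pgk1-rs7 and 1251 for Gm5537.

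The share of the coding sequence that another gene repeats unchanged was measured in windows of 150 bases, the stated read length. All 1102 windows of Pgk1 and all 613 windows of Pgam1 were found unchanged in the transcript of at least 1 other annotated gene. For Gapdh the figure was 868 of 928 windows (93.5%), spread over 46 other genes, and for Eno1 it was 684 of 1153 (59.3%). None of the windows of Pkm, Aldoa, Hk1, Tpi1, Ldha or Pfkl was found elsewhere. The 4 enzymes with shared windows were therefore all among the 6 below 1 FPKM, while Ldha and Pfkl were below 1 FPKM with no shared window found. How the authors assigned reads that map to several genes was not given in the sources used here, and its part in these levels was not tested.

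**Figure D1:**
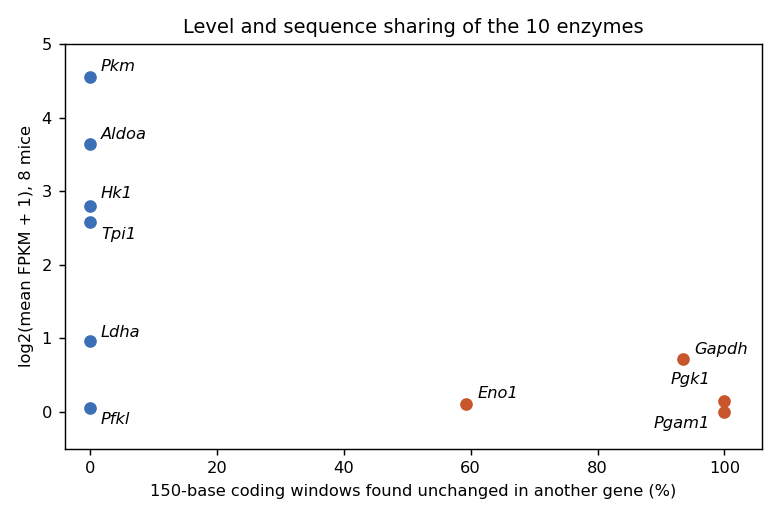
Mean level of the 10 enzymes over 8 mice, as log2(mean FPKM + 1), against the percentage of their 150-base coding windows found unchanged in another gene. Orange points are enzymes with any shared window and blue points those with none found among the genes searched. Pkm, Aldoa, Hk1 and Tpi1 stand high on the left at 0%, Gapdh (93.5%), Pgk1 (100%), Pgam1 (100%) and Eno1 (59.3%) lie low, and Ldha and Pfkl lie low with 0%.

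Copies of Gapdh, Eno1 and Pgk1 were above 0 in some of the mice in which the enzyme itself was listed at 0. Of 79 copies of Gapdh that matched it over at least 80% of their own length at 95% identity or more, 18 were above 0 in at least 1 mouse. Gapdh itself was listed at 0, 0, 5.08 and 0 FPKM in the 4 controls and at 0, 0, 0.0190 and 0.0264 FPKM in the 4 TNFdARE mice. The summed FPKM of its copies was 0.169, 3.88, 0.0914 and 3.79 in the 4 controls and 1.42, 1.09, 2.68 and 0 in the 4 TNFdARE mice. Control mouse 3, which alone had a Gapdh value above 0.03 FPKM, thus had the lowest copy sum among the control mice, and the sum of gene and copies was above 0 in all 8 mice. The highest values of single copies were 3.72 FPKM for Gm7336 in control mouse 2 and 2.50 FPKM for Gm5069 in control mouse 4. With the copies added, Gapdh passed the level for testing and had a log2 fold change, TNFdARE minus control, of -0.78 with a standard error of 0.76 (limma with Benjamini-Hochberg adjustment, adjusted p = 0.86). The groups overlapped.

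Eno1 and Pgk1 had lower means than Gapdh and were also listed at 0 in some mice in which copies were above 0. Eno1 was above 0 only in control mouse 4 (0.576 FPKM) and TNFdARE mouse 4 (0.0746 FPKM). Its copy Gm4735 was above 0 only in control mouse 2 (2.54 FPKM) and TNFdARE mouse 3 (0.388 FPKM). No mouse had a value above 0 for both the gene and the copy. Pgk1 was above 0 only in control mouse 4 (0.910 FPKM). Its copies summed to 0.0996 FPKM in control mouse 2, 0.190 in control mouse 3, 0.242 in TNFdARE mouse 2 and 0.270 in TNFdARE mouse 3, and to 0 in the other 4 mice. Again gene and copies were never above 0 in the same mouse, unlike for Gapdh in control mouse 3 and TNFdARE mouse 3. Few values were above 0, and whether this separation differs from chance was not tested. Pgam1 (ENSMUSG00000011752, chr19:41911923-41918660, plus strand), which moves the phosphate of phosphoglycerate, was listed at 0 in all 8 mice, as were both genes similar to it, Pgam1-ps1 and Pgam1-ps2.

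**Figure D2:**
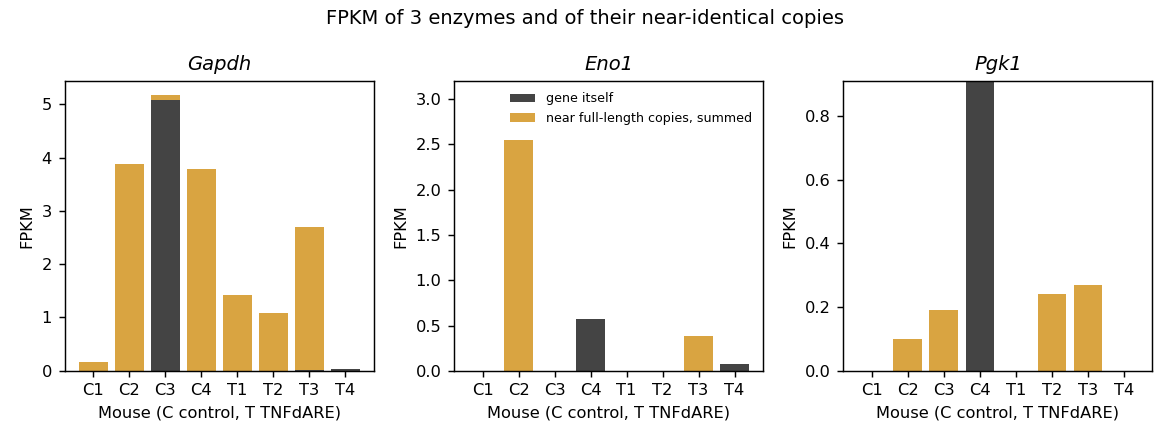
FPKM of Gapdh, Eno1 and Pgk1 (dark) and of their near full-length copies summed (orange), stacked for each of 4 control (C1 to C4) and 4 TNFdARE (T1 to T4) mice, each panel with its own scale. The Gapdh bar of control mouse 3 is almost all the gene itself (5.08 FPKM), the bars of control mice 2 and 4 are all copies (3.88 and 3.79 FPKM), and for Eno1 and Pgk1 the gene and its copies never share a bar.

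The enzymes for which no shared window was found are given in the order of the pathway. Hk1 (ENSMUSG00000037012, chr10:62268855-62379908, minus strand) encodes hexokinase 1, which phosphorylates glucose on entry. It measured 5.51, 13.1, 8.30 and 5.51 FPKM in the 4 controls and 0.886, 4.60, 5.76 and 4.14 FPKM in the 4 TNFdARE mice. The lowest value was that of TNFdARE mouse 1, and the groups overlapped through TNFdARE mouse 3 alone, which lay above control mice 1 and 4. The means were 8.11 ± 3.60 FPKM in controls and 3.85 ± 2.09 FPKM in TNFdARE mice (SD, n = 4 each). On the log2(FPKM + 1) scale, which understates changes of low genes, the difference TNFdARE minus control was -0.98 with a standard error of 0.64 and a 95% interval of -2.37 to 0.41. It did not pass the test (limma with Benjamini-Hochberg adjustment over 1534 genes, adjusted p = 0.86, unadjusted p = 0.151, and a two-sided exact permutation p = 0.0857 for 4 against 4 mice). Without TNFdARE mouse 1 the difference was -0.58. An antisense transcript, Hk1os, lies on the opposite strand of Hk1 and shares 157 bases with it, and measured 7.87 FPKM in control mouse 3 and 0.872 FPKM in TNFdARE mouse 3 only. Whether the counting used strand was not given in the sources used here, so reads within the shared stretch cannot be assigned to one of the pair. No 150-base coding window of Hk1 was found in Hk1os.

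Pfkl (ENSMUSG00000020277, chr10:77986947-78010083, minus strand), the liver-type subunit of phosphofructokinase, which commits sugar to glycolysis, was above 0 only in TNFdARE mouse 2 (0.292 FPKM) and TNFdARE mouse 3 (0.0166 FPKM). It was listed at 0 in all 4 control mice.

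Aldoa (ENSMUSG00000030695, chr7:126795234-126800751, minus strand) encodes the aldolase that cleaves the 6-carbon sugar. It measured 15.0, 13.3, 14.6 and 9.87 FPKM in the 4 controls and 3.29, 11.9, 10.7 and 12.6 FPKM in the 4 TNFdARE mice. Control mouse 4 lay within the TNFdARE range, and TNFdARE mouse 1 lay below every other mouse. The means were 13.2 ± 2.34 FPKM in controls and 9.63 ± 4.30 FPKM in TNFdARE mice (SD, n = 4 each). The log2 difference was -0.53 with a standard error of 0.57 and a 95% interval of -1.77 to 0.71 (limma with Benjamini-Hochberg adjustment, adjusted p = 0.867). Without TNFdARE mouse 1 it was -0.14.

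Tpi1 (ENSMUSG00000023456, chr6:124810586-124814296, minus strand) encodes triosephosphate isomerase, which converts the 3-carbon products of aldolase into each other. It measured 0.150, 7.40, 8.01 and 2.19 FPKM in the 4 controls and 0, 5.65, 6.43 and 9.86 FPKM in the 4 TNFdARE mice. Each group thus held 1 mouse at or near 0, and the other 3 mice of each group overlapped, at 2.19 to 8.01 FPKM in controls and 5.65 to 9.86 FPKM in TNFdARE mice. The means were 4.44 ± 3.87 FPKM in controls and 5.48 ± 4.09 FPKM in TNFdARE mice (SD, n = 4 each). The log2 difference of 0.24 had a standard error of 0.91 and a 95% interval of -1.73 to 2.21 (limma with Benjamini-Hochberg adjustment, adjusted p = 0.969). Its direction depended on single mice, being -0.37 without control mouse 1, -0.15 without TNFdARE mouse 4 and 0.99 without TNFdARE mouse 1.

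Pkm (ENSMUSG00000032294, chr9:59656368-59679375, plus strand) encodes the muscle-type pyruvate kinase, which makes the last ATP of the pathway. It had the highest mean of the 10 enzymes, at 42.2, 23.8, 19.0 and 16.3 FPKM in the 4 controls and 21.5, 20.7, 24.9 and 11.6 FPKM in the 4 TNFdARE mice. Control mouse 1 was the highest and TNFdARE mouse 4 the lowest, and the other 6 mice interleaved. The means were 25.3 ± 11.7 FPKM in controls and 19.7 ± 5.69 FPKM in TNFdARE mice (SD, n = 4 each). The log2 difference was -0.30 with a standard error of 0.52 and a 95% interval of -1.42 to 0.82 (limma with Benjamini-Hochberg adjustment, adjusted p = 0.895). It was -0.03 without control mouse 1, -0.08 without TNFdARE mouse 4 and 0.13 when limma weighted the mice by their quality. The values are per gene, so the M1 and M2 splice forms of Pkm were not separated.

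Ldha (ENSMUSG00000063229, chr7:46841475-46855627, plus strand) encodes the lactate dehydrogenase subunit that reduces pyruvate to lactate. It measured 0.0944, 0, 0 and 4.31 FPKM in the 4 controls and 0, 0.331, 1.22 and 1.66 FPKM in the 4 TNFdARE mice. Control mouse 4 was the highest of all and the other 3 control mice were under 0.1 FPKM, whereas 3 of 4 TNFdARE mice lay between these. The means were 1.10 ± 2.14 FPKM in controls and 0.805 ± 0.772 FPKM in TNFdARE mice (SD, n = 4 each). With a mean of 0.953 FPKM over the 8 mice it just missed the level of 1 FPKM for testing, and its two-sided exact permutation p was 0.829.

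**Figure D3:**
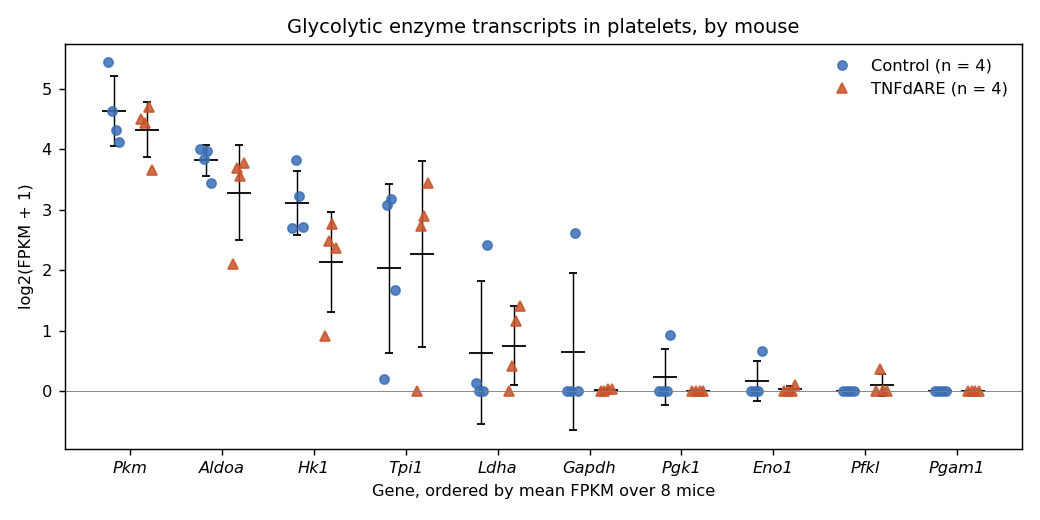
Level of each enzyme as log2(FPKM + 1) in 4 control mice (blue circles) and 4 TNFdARE mice (orange triangles), with group means (horizontal bars) and SD (error bars), genes ordered by mean FPKM. Pkm, Aldoa and Hk1 are above 0 in every mouse, the lowest Aldoa, Hk1 and Tpi1 triangles are all TNFdARE mouse 1, and from Ldha to the right most points lie at 0.

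The background was read from all 1534 genes that entered the fit. At an unadjusted p under 0.05 stood 69 of them (4.5%), namely 27 with more (1.76%) and 42 with less (2.74%) transcript in the mutants, a split that became 34 and 25 after quantile normalization. At an adjusted p under 0.05 there were 0, the smallest being 0.86 (limma with Benjamini-Hochberg adjustment). Of the 4 tested enzymes 0 had an unadjusted p under 0.05. The groups did not overlap in 51 of the tested genes (3.32%) and in 0 of the 4 enzymes. The median log2 difference of the 4 enzymes was -0.42, with 3 lower and 1 higher in TNFdARE mice, beside a median of -0.30 over all genes tested, of which 63.0% were lower. The direction of 3 of the 4 enzymes was thus that of most of the 1534 genes tested, whereas the median over all 6566 genes above 0 in any mouse, fitted without the filter on level, was 0.01. The enzymes were summed as a description: the total was 63.0, 57.6, 55.0 and 39.7 FPKM in the 4 controls and 25.7, 43.5, 49.1 and 40.0 FPKM in the 4 TNFdARE mice. TNFdARE mouse 1 had the smallest total and control mouse 4 the smallest among controls, so that 3 TNFdARE mice lay above 1 control mouse.

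TNFdARE mouse 1 had the lowest Aldoa, Hk1 and Tpi1 values of all 8 mice, the fewest enzymes above 0 (3 of 10, against 4 to 7 in the other mice) and the fewest genes above 0 in the library. Without TNFdARE mice 1 and 4 together, the differences were -0.49 for Hk1, -0.19 for Aldoa, -0.06 for Pkm and 0.78 for Tpi1. Markers of red cell precursors differed between the same libraries. Above 0 were 12 of 13 erythroid markers, and their summed FPKM was 753 to 2199 in control mice and 1107 to 14653 in TNFdARE mice, the highest being in TNFdARE mice 1 and 4. Of the 7 that were tested, 6 had an unadjusted p under 0.05 and 0 an adjusted p under 0.05 (limma). Their part in the enzyme values was not tested. Neutrophil markers summed to 0 to 3.66 FPKM in controls and 0 to 10.3 FPKM in TNFdARE mice with 5 of 10 at 0 in every mouse. T cell markers were at 0 in all controls and at most 0.822 FPKM in TNFdARE mice with 6 of 7 at 0 in every mouse. B cell markers summed to 0 to 11.1 FPKM in controls and 0.129 to 13.7 FPKM in TNFdARE mice with 4 of 6 at 0 in every mouse. Of the 7 monocyte and macrophage markers 4 were at 0 in every mouse, and the sum, nearly all of it Lyz2, was 30.8 to 50.3 FPKM in controls and 12.0 to 36.1 FPKM in TNFdARE mice.

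The order of the enzymes is described within mice on the log2(FPKM + 1) scale, without a test, since the order was taken from the means of the same 8 mice. Pkm was above Aldoa in 7 of 8 mice, by 0.93 ± 0.75 (SD, n = 8). Aldoa was above Hk1 in all 8 mice, by 0.92 ± 0.45 (SD, n = 8). Hk1 was above Tpi1 in 5 of 8 mice, by 0.47 ± 1.08 (SD, n = 8), a mean difference smaller than its SD. Tpi1 exceeded Ldha in 6 of 8 mice by 1.46 ± 1.49 (SD, n = 8), a mean difference close to its SD. For every neighbouring pair below Ldha the mean difference was smaller than its SD. Among the 6566 genes above 0 in any mouse, ranked by mean FPKM, Pkm stood at rank 169, Aldoa at 304, Hk1 at 526, Tpi1 at 588, Ldha at 1569 and Gapdh at 1954.

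The sexes were compared because each genotype held 2 females and 2 males by the labels. In females, Tpi1 was 0.150 and 2.19 FPKM in control mice 1 and 4 and 5.65 and 9.86 FPKM in TNFdARE mice 2 and 4. In males it was 7.40 and 8.01 FPKM in control mice 2 and 3 and 0 and 6.43 FPKM in TNFdARE mice 1 and 3. Both TNFdARE females thus lay above both control females and both TNFdARE males below both control males. The log2 difference TNFdARE minus control was 2.15 in females and -1.67 in males, and the male value was -3.82 relative to the female value with a standard error of 1.66 (limma interaction term, unadjusted p = 0.0369, adjusted p = 0.917). Of all genes tested 54 (3.52%) had an interaction p under 0.05 and 0 passed after adjustment. Without TNFdARE mouse 1, the male listed at 0, the interaction was -2.38 (limma, unadjusted p = 0.115, adjusted p = 1). Of the 6 tested housekeeping genes, the interaction was negative in 4 (Rplp0, Eef1a1, Rpl13a at -3.06 and Actb at -0.67) and positive in Ywhaz (3.17) and B2m (1.08). It had an unadjusted limma p under 0.05 in Rplp0 and Eef1a1, genes of the ribosome and of translation that nearly all cells use. Rplp0 was 0 and 8.42 FPKM in control females, 14.2 and 20.7 FPKM in TNFdARE females, 4.83 and 17.9 FPKM in control males and 0.274 and 2.46 FPKM in TNFdARE males, with an interaction of -4.89 (limma, unadjusted p = 0.0123, adjusted p = 0.917). Eef1a1 was 0.705 and 10.2 FPKM in control females, 8.17 and 27.7 FPKM in TNFdARE females, 7.63 and 9.76 FPKM in control males and 0.149 and 4.20 FPKM in TNFdARE males, with an interaction of -3.87 (limma, unadjusted p = 0.037, adjusted p = 0.917). The TNFdARE females thus lay above both control females for Rplp0, whereas for Eef1a1 one of them lay below a control female. Control mouse 1 and TNFdARE mouse 1 had the lowest values of all 8 mice for Tpi1, Rplp0 and Eef1a1 alike, whereas TNFdARE mouse 1 was the highest for Ywhaz (44.9 FPKM), and the part of these libraries in the sex difference was not tested beyond leaving out each mouse. For Pkm, Aldoa and Hk1 the interaction p was 0.492, 0.418 and 0.347.

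**Figure D4:**
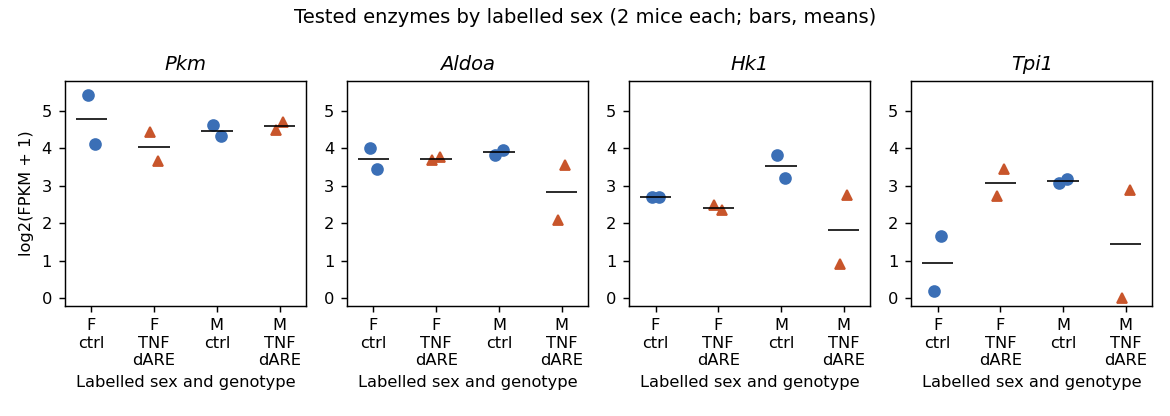
Level of the 4 tested enzymes as log2(FPKM + 1) by labelled sex (F female, M male) and genotype, with 2 mice per column and the mean as a bar. For Tpi1 the TNFdARE females lie above the control females and the TNFdARE males below the control males, one of them at 0.

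The surrounding pathways were read from lists of 96 genes, of which 95 were in the table, 46 were above 0 in any mouse and 9 were tested. Of these 9, 0 had an unadjusted p under 0.05 in either direction. Of 18 other isozymes and steps of glycolysis only 3 were above 0 in any mouse and none was tested. Eno3, the muscle enolase, measured 5.09 FPKM in TNFdARE mouse 2 and 0.204 FPKM in TNFdARE mouse 3, Pgam2, the muscle mutase, 0.829 and 2.35 FPKM in the same mice, and Pklr, the liver and red cell pyruvate kinase, 0.686 FPKM in control mouse 2.

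Glucose enters platelets through Slc2a3 (GLUT3), which measured 9.67, 13.6, 18.3 and 14.8 FPKM in the 4 controls and 11.0, 13.0, 17.3 and 6.34 FPKM in the 4 TNFdARE mice. The groups overlapped, and the log2 difference was -0.27 with a standard error of 0.54 (limma, unadjusted p = 0.624, adjusted p = 0.907), and it was -0.02 without TNFdARE mouse 4. The more widely used carrier Slc2a1 (GLUT1) was above 0 only in TNFdARE mouse 3 (0.140 FPKM). Bsg (basigin), the partner that brings lactate carriers to the membrane, measured 14.4, 11.8, 20.1 and 20.2 FPKM in the 4 controls and 0, 20.1, 12.7 and 23.7 FPKM in the 4 TNFdARE mice. Its log2 difference of -0.91 (standard error 0.89, limma, unadjusted p = 0.328, adjusted p = 0.86) became 0.16 without TNFdARE mouse 1, which was listed at 0.

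Bpgm makes 2,3-bisphosphoglycerate from a glycolytic intermediate, the compound that lowers the oxygen affinity of haemoglobin in red cells. It measured 3.60, 1.12, 6.56 and 1.46 FPKM in the 4 controls and 10.3, 4.47, 3.93 and 25.2 FPKM in the 4 TNFdARE mice. The highest values were those of TNFdARE mice 1 and 4, the libraries with the highest erythroid marker sums, and control mouse 3 lay within the TNFdARE range. The log2 difference was 1.37 with a standard error of 0.73 and a 95% interval of -0.21 to 2.94 (limma with Benjamini-Hochberg adjustment, adjusted p = 0.86, unadjusted p = 0.0839). This was the largest difference in size among the 9 tested genes of these lists, and it did not pass the test. It was 0.87 without TNFdARE mouse 4 and 0.50 without TNFdARE mice 1 and 4. Pfkfb2, which sets the level of an activator of phosphofructokinase, differed by -0.31 (standard error 0.76; 0.15 without control mouse 2), and Myc, a transcription factor, was above 0 in TNFdARE mouse 1 alone (7.51 FPKM).

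The highest of all neighbouring genes was Taldo1, the transaldolase of the pentose phosphate pathway, which links that pathway back to glycolysis. It measured 56.8, 70.3, 81.0 and 70.2 FPKM in the 4 controls and 45.5, 41.7, 47.2 and 102 FPKM in the 4 TNFdARE mice. TNFdARE mice 1 to 3 lay below all control mice and TNFdARE mouse 4 above them all. The log2 difference was -0.32 with a standard error of 0.44 (limma, unadjusted p = 0.479, adjusted p = 0.883). Without TNFdARE mouse 4 it was -0.61 with an unadjusted limma p of 0.0354 and an adjusted p of 0.875. Of the same pathway Pgls measured 11.2 FPKM in control mouse 3 and 1.14 FPKM in TNFdARE mouse 3 only, and G6pdx, its entry enzyme, averaged 0.956 FPKM over the 8 mice.

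Among glycogen genes, Pygb, the brain-type phosphorylase, averaged 3.19 FPKM and differed by -0.03 (standard error 0.87), with values from -0.60 without control mouse 1 to 0.53 without TNFdARE mouse 1. Phkb and Phkg2, subunits of the kinase that switches phosphorylase on, differed by 0.46 (standard error 0.87) and -0.36 (standard error 0.84), with values above 0 in 3 and 2 mice. Single mice set these signs, Phkb being -0.21 without TNFdARE mouse 1 and Phkg2 0.41 without control mouse 1. None of 31 genes of pyruvate entry and the tricarboxylic acid cycle reached a mean of 1 FPKM, and 17 were above 0 in any mouse. The highest were Idh3g, Mdh2 and Sucla2, with means of 0.878, 0.630 and 0.381 FPKM over the 8 mice.

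**Figure D5:**
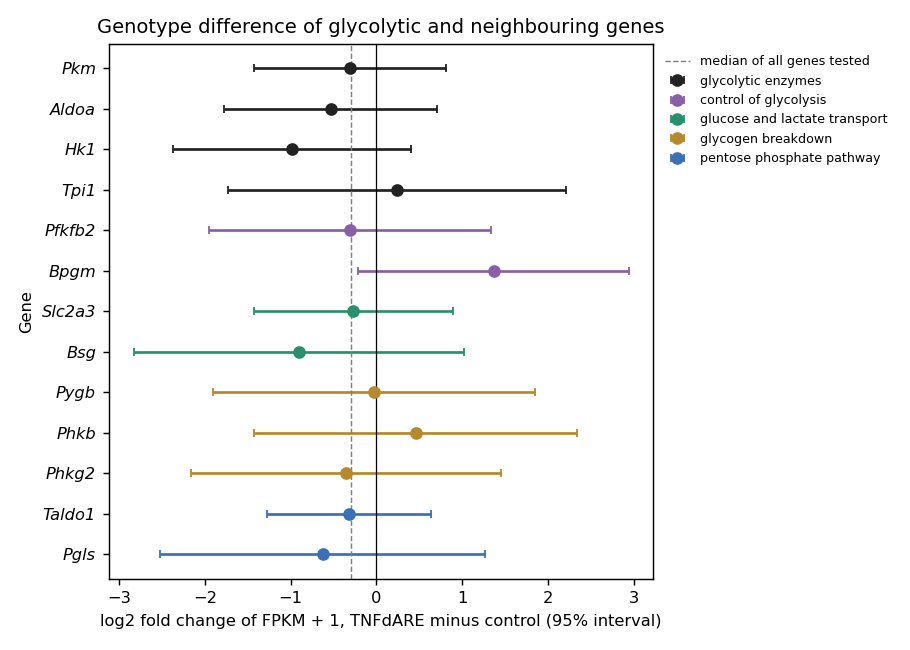
Log2 difference of FPKM + 1, TNFdARE minus control, with its 95% interval from limma, for the 4 tested enzymes (black) and the 9 tested genes of neighbouring pathways (coloured by list), 4 mice per group. The solid line marks 0 and the dashed line the median of all genes tested (-0.30), and every interval spans 0.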

How the data were processed

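Platelet RNA was sequenced by the authors as 150 bp reads, the labels give all 8 libraries the same batch date, and 1 value per gene and mouse was deposited. The deposited values were read as FPKM, the unit Cufflinks gives, since the submitters' processing notes name Cufflinks and mm10. The unit was inferred, and versions, strand setting and the handling of multi-mapping reads were not given in the sources used here. The descriptions disagree on the number of mice (3 per group in one place, 4 in another) and, in a passage on bones, on their age. The listed samples and the methods were followed. Sex stands under the label for cell line. Replicates are separate mice, and p-values set group differences against the spread between mice.

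The 4 TNFdARE and 4 control mice were compared with limma 3.58.1 (R 4.3.3; empirical Bayes with trend, two-sided) on log2(FPKM + 1) over the 1534 genes with a mean of at least 1 FPKM, with Benjamini-Hochberg adjustment. Single genes were also given exact permutation tests of the difference in group means, which for 4 against 4 mice allow no p under 0.0286. Simulated data of 1534 genes with 200 changed by 3 on the log2 scale gave 62.5% recovered at an adjusted p under 0.05 and 6 false calls. The main comparison did not pair the mice, and pairing by litter was not tested. Similar genes were found by BLAST 2.17.0 on GENCODE M21 transcripts (GRCm38; at least 95% identity over 150 bases), and 42384 of the 43548 identifiers occurred there. Only similar genes that were among these identifiers were kept. Sequences were read from the GENCODE M21 transcripts, with positions from its GRCm38 annotation.

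The members and lists were chosen with earlier results of these data known. Genes named were the 10 enzymes, from each neighbouring list the tested genes with an unadjusted p under 0.05 and the 3 with the highest mean FPKM, housekeeping genes by list (1 is not reported here), and similar genes with a mean of at least 1 FPKM or the highest of each enzyme. Lyz2 and the further copies of Gapdh, Pgk1 and Pgam1 were outside this rule and were chosen with their values in view. Settings varied in turn were other pseudocounts (0.1 and 5), filters, scalings, weights and covariates, a listed 0 as missing, copies added, and leaving out each mouse.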

Additional observations from a re-analysis of the deposited data

Results flagged for a closer look

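Of 26 groups of 4 mice examined, 6 held a mouse whose gap to the nearest other mouse exceeded 0.829 of the group's range. Chance gives about 1.3 such groups for values without ties. Several of these groups were tied at 0, so the count of 6 cannot be compared with it. In control mice this gap was 0.978 of the range for Ldha (control mouse 4), and 1 for Gapdh (control mouse 3), for Pgk1 (control mouse 4) and for Eno1 (control mouse 4). In TNFdARE mice it was 1 for Eno1 (TNFdARE mouse 4) and 0.943 for Pfkl (TNFdARE mouse 2). In all 6 the other mice were at or near 0, so a single value above 0 is enough to produce such a gap. Control mouse 4 accounted for 3 of the 6.

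The difference of Tpi1 between TNFdARE and control platelets had opposite signs in the sexes, with every TNFdARE female above every control female and every TNFdARE male below every control male. The interaction term of limma gave an unadjusted p of 0.0369 and an adjusted p of 0.917, with 2 mice per sex and genotype, and 1 of the 4 tested enzymes met the unadjusted level, beside 54 of all 1534 genes tested (3.52%). The unadjusted p stayed under 0.05 in 7 of 9 other settings (range 0.0325 to 0.0559). When each mouse was left out in turn, a check added after the data were seen, it was under 0.05 in 1 of 8 fits, that without TNFdARE mouse 3 (0.00773), and otherwise reached up to 0.157. These fits leave 1 mouse in a sex and genotype, which is assumed to vary like the other mice. Of 6 tested housekeeping genes the interaction was negative in 4, among them Rplp0 (-4.89) and Eef1a1 (-3.87), and positive in Ywhaz (3.17) and B2m (1.08). Control mouse 1 and TNFdARE mouse 1 were lowest for Tpi1, Rplp0 and Eef1a1, and TNFdARE mouse 1 was highest for Ywhaz.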

How the results depend on the processing

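No enzyme had an unadjusted limma p under 0.05 for genotype under any of the 21 other settings, the smallest being 0.0957 (Hk1, listed 0 as missing), and no gene of the table had an adjusted p under 0.05 in any of them (smallest adjusted p per setting 0.171 to 0.925). Aldoa and Hk1 had negative differences under all 21, but Hk1 went from -0.98 to -0.48 after quantile normalization and -0.47 with sample weights, and Aldoa from -0.53 to -0.21 and -0.14. Pkm turned to 0.13 with sample weights and ranged from -0.47 to -0.03 when single mice were left out, the latter without control mouse 1, and Tpi1 to -0.37 without control mouse 1 and to -0.15 without TNFdARE mouse 4 (0.99 without TNFdARE mouse 1), in each case without passing the test. The number of all genes with an unadjusted p under 0.05, 69, became 36 at a mean of at least 5 FPKM (583 genes tested) and 111 with sample weights, and 46 to 75 when single mice were left out. Of these genes 39.1% were higher in TNFdARE mice, against 57.6% after quantile normalization, 66.7% with sample weights 56.5% without TNFdARE mouse 1 or 4 and 16.3% without control mouse 1. The median over all genes tested was -0.06 after quantile normalization and -0.01 with sample weights.

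The median of the 4 enzymes, -0.42, ranged from -0.57 to -0.25 when single mice were left out and was -0.20 after quantile normalization, -0.01 with sample weights and -0.12 without TNFdARE mice 1 and 4 (chosen after seeing the data). The count of enzymes with an interaction p under 0.05, 1, became 0 with a pseudocount of 5, at a mean of at least 5 FPKM (where Tpi1 was not tested) and after quantile normalization, and ranged from 0 to 3 when single mice were left out (3 without TNFdARE mouse 3: Aldoa, Hk1 and Tpi1; 0 without any of the other 7). The cause was not tested. With the replicate number as a block, which in this balanced layout cannot change a log2 difference (median -0.42), 64 genes had an unadjusted p under 0.05. Mice of the same number correlated by only -0.067 to 0.060, a check of the replicate numbers alone. Control mouse 1 correlated best with TNFdARE mouse 1, and the other controls with a mouse of another number. The library names of control mouse 1 and TNFdARE mouse 1 share a number, as do those of control mouse 4 and TNFdARE mouse 3. Pairing by litter was not tested. The unknown read depth and the many listed zeros limit what can be said of the 6 enzymes below 1 FPKM.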
